A study of Mus musculus with 12 samples.

Results

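The phagocyte NADPH oxidase was examined here as 7 genes, Cybb, Cyba, Ncf1, Ncf4, Rac1, Rac2 and Hvcn1, taken by symbol from a count table of 23420 genes. All 7 were present and all 7 passed the filter on low counts, among 9742 genes that were tested. The study sequenced RNA of monocytic myeloid-derived suppressor cells (M-MDSCs), immature myeloid cells that restrain T cells, sorted as CD11b+Ly6G-Ly6Chi cells from tibial bone marrow. The young group held 6 male C57BL/6JNIA mice of 6 months and the aged group held 6 male mice of the same strain of 24 months. No mouse carried a transgene or received a treatment that the labels name. The question was how age changes the transcripts of these cells.

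This enzyme moves electrons from NADPH across a membrane onto oxygen and so makes superoxide, the starting point of the oxidants with which phagocytes kill microbes. Myeloid-derived suppressor cells are also known to use oxidants of this origin against T cells, a use described mainly for the polymorphonuclear kind rather than for M-MDSCs. At rest the enzyme lies in separate pieces. The membrane flavocytochrome b558 consists of gp91phox, encoded by Cybb, and p22phox, encoded by Cyba. On activation the cytosolic subunits p47phox (Ncf1) and p40phox (Ncf4) join it together with a GTP-bound Rac, and the proton channel encoded by Hvcn1 carries out the charge that the electrons leave behind.

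Libraries held between 4613239 and 9079237 assigned fragments in young mice and between 8737941 and 16300374 in aged mice. All 7 genes were deeply counted, with the lowest count of any member in any library at 1414, for Hvcn1. Levels are given as CPM, counts relative to a library total that was first adjusted with a TMM factor, which aligns the bulk of genes between libraries. Several properties of the libraries moved with age. Fragments on genes shorter than 1000 bases made up 11.2% to 13.98% of aged libraries, 9.27% to 10.5% of 4 young libraries, and only 6.47% and 6.13% of young replicates 5 and 6, which stood apart from the rest. The alignment file numbers were 11 to 16 in young mice and 17 to 19 and 24 to 26 in aged mice, so that age and whatever these numbers stand for cannot be told apart.

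The labelled cell type was checked against marker genes. Counts of markers called stand against 22.4% of all genes tested called higher in aged mice and 23% called lower. Summed transcripts of 10 neutrophil markers were very abundant, from 94190 to 112700 CPM in aged and from 73100 to 99590 CPM in young mice, and 5 of the 10 were higher in aged mice (Lcn2, Ngp, Cd177, Camp and Retnlg), a count that was 1 with a correction of each library for gene length, 1 without young replicates 5 and 6, and 0 with the aged libraries of file numbers 17 to 19 alone. Summed transcripts of 9 monocyte markers were at 4672 to 5727 CPM in aged and 5268 to 5639 CPM in young mice, most of it Itgam (CD11b), which neutrophils also express, with Ly6c2, a gene of the sorted Ly6C antigen, at 726 CPM in aged and 500 CPM in young mice, Csf1r at 141 and 134 CPM and Ccr2 at 31.2 and 37.1 CPM, and of these markers Ly6c2 and Cd68 were higher and Itgam was lower. These values go against a pure monocytic population, and the cells are therefore called sorted cells below. All 10 resident macrophage markers that could be tested, of 11 listed, were higher in aged mice, with a sum of 90.7 to 1182 CPM in aged and 78.7 to 98.8 CPM in young mice, highest in aged replicates 1 and 2. Summed B cell markers reached at most 16.1 CPM, T and NK cell markers 37.8 CPM, dendritic cell markers 22.4 CPM and erythroid markers 9.23 CPM. Summed proliferation markers ran from 381 to 855 CPM in aged and from 711 to 1336 CPM in young mice, highest in young replicates 5 and 6, and of 8 such genes Mki67 and Top2a were lower in aged mice. The part of these markers in the results on the oxidase was not tested directly. In bulk RNA, fewer cells of a type and less RNA per cell cannot be told apart.

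The Cybb and Cyba starts are shown first because these genes encode the partners of a single heterodimer and their edgeR calls differed, although not once gene length was corrected for, and Ncf1 is shown as the cytosolic partner that docks onto Cyba. RefSeq held a promoter entry for these 3 of the 7 members (GRCm38.p6). Each line gives the 120 bases before the annotated start, 5′ to 3′ on the gene's strand, which is the minus strand for all 3, with capitals at a CCAAT box (CCAAT) or a GC box (GGGCGG) on either strand.
Cybb, chrX:9469325-9469444: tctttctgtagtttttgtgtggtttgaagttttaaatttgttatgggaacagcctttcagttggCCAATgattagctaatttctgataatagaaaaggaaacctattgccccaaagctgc
Cyba, chr8:122432941-122433060: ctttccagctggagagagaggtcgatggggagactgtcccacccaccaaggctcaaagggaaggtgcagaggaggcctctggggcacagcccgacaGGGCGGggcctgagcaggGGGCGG
Ncf1, chr5:134229626-134229745: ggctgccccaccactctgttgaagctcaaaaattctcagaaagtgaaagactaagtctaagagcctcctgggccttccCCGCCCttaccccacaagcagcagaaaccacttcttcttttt
Within the 250 bases before the start, Cybb held 1 CCAAT box, 56 to 52 bases before the start, and no GC box. Cyba held 2 GC boxes, at 24 to 19 and 6 to 1 bases before the start, and no CCAAT box. Ncf1 held 1 GC box on the opposite strand, at 42 to 37 bases. A CCAAT box was found in 33.8% and a GC box in 32.7% of 32851 mouse promoter windows of this length. GAGGAA, a form of the site that the myeloid factor PU.1 reads, was in 23.3% of them and in none of these 3. This says only that those letters are not in these windows, and other forms of the site were not searched.

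In aged mice 3 of the 7 members were higher (Cyba, Rac1 and Rac2), 0 were lower, and 4 passed no test (Cybb, Ncf1, Ncf4 and Hvcn1). The test was edgeR's quasi-likelihood test with Benjamini-Hochberg adjustment over all genes at 0.05. No member was lower at an unadjusted p under 0.05 either, and DESeq2 also called 0 lower and 3 higher. Of all genes tested, 22.4% were called higher and 23% lower, 45.4% in all. The count of members called is thus near what the whole transcriptome showed, with 3 called of 7. The median log2 fold change was 0.10 over the members and 0.01 over all genes tested. Together the 7 genes took 1.003% to 1.19% of the fragments of each library, and the ranges of the age groups overlapped.

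**Figure D1:**
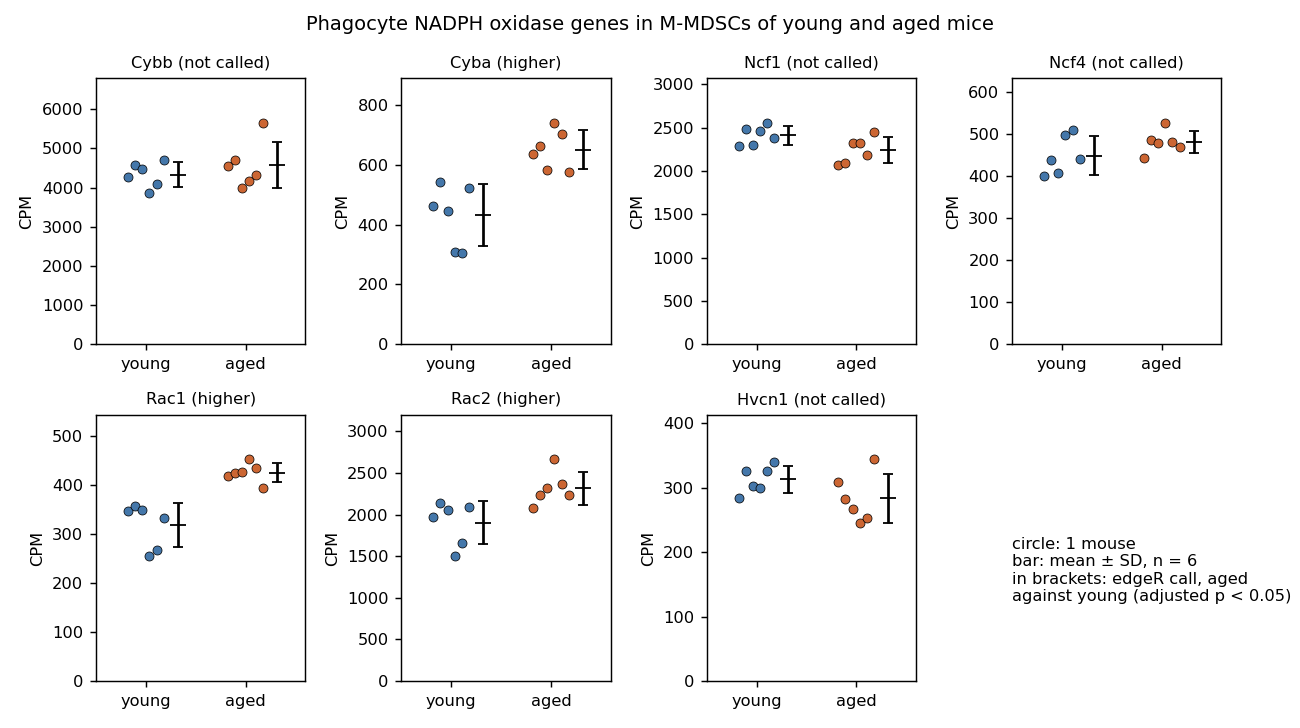
CPM of each oxidase gene in 6 young and 6 aged mice, 1 circle a mouse, with the mean and SD beside the circles and the edgeR call in brackets. Cyba and Rac1 show no overlap between the ages, Rac2 shows a small one, and the other 4 genes overlap widely.

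Of the flavocytochrome, the p22phox gene rose and the gp91phox gene did not pass the test. Cyba (chr8:122424771-122432940 of mm10, minus strand, 6 exon blocks, 759 exonic bases) ran from 304 through a median of 455 to 544 CPM in young mice and from 578 through 650 to 742 CPM in aged mice. Every aged mouse was above every young mouse, and young replicates 5 and 6 were the lowest, at 310 and 304 CPM. The means were 651 ± 65.3 CPM in aged and 432 ± 103 CPM in young mice (SD, n = 6 each), a log2 fold change of 0.59 (SE 0.14, edgeR adjusted p = 0.00312) or 1.51-fold. Across all genes tested, 9.64% had every aged mouse above every young mouse. With each library corrected for its dependence on gene length, the Cyba difference was 0.19 on the log2 scale and no longer passed (adjusted p = 0.111). Without young replicates 5 and 6 it was 0.38 and passed (adjusted p = 0.00409).

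Cybb (chrX:9435252-9469324, minus strand, 13 exon blocks, 4752 bases) was the most abundant member and stood 17th of all genes by mean CPM. Its level ran from 3863 through 4368 to 4708 CPM in young mice and from 3997 through 4444 to 5658 CPM in aged mice. The age groups overlapped almost fully, with aged replicate 7 above all other libraries. The means were 4570 ± 592 CPM in aged and 4327 ± 316 CPM in young mice (SD, n = 6 each), a log2 difference of 0.08 (SE 0.092, edgeR adjusted p = 0.502) with a 95% interval from -0.13 to 0.29. A rise of the size measured for Cyba lay outside that interval. Corrected for gene length, the Cybb value was 0.23 (adjusted p = 0.0742).

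Of the cytosolic subunits, neither Ncf1 nor Ncf4 passed the test. Ncf1, whose product p47phox is phosphorylated on activation and brings the complex to the membrane, lies at chr5:134220260-134229625 (minus strand, 11 exon blocks, 2721 bases). It ran from 2287 through 2422 to 2558 CPM in young mice and from 2065 through 2254 to 2450 CPM in aged mice. The 2 lowest libraries were aged replicates 1 and 2, and the groups overlapped. The means were 2241 ± 151 CPM in aged and 2413 ± 107 CPM in young mice (SD, n = 6 each), with a log2 difference of -0.11 (SE 0.068, edgeR adjusted p = 0.217) and a 95% interval from -0.26 to 0.05. Without TMM factors the value was -0.20 and passed as lower (adjusted p = 0.0245), a scaling under which the median of all genes was -0.08.

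Ncf4, whose product p40phox binds a phosphoinositide of phagosomes, lies at chr15:78244811-78262580 (plus strand, 10 exon blocks, 1454 bases). It ran from 400.0 through 440 to 508 CPM in young mice and from 444 through 479 to 526 CPM in aged mice. Here young replicates 5 and 6 were the highest young libraries, the reverse of their place for Cyba. The means were 481 ± 26.9 CPM in aged and 448 ± 45.2 CPM in young mice (SD, n = 6 each), with a log2 difference of 0.10 (SE 0.073, edgeR adjusted p = 0.277). Without young replicates 5 and 6 the difference was 0.17 and passed (adjusted p = 0.0427), and with the correction for gene length it was -0.10 (adjusted p = 0.366).

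Both Rac GTPases were higher in aged mice. Rac1, which is expressed in most tissues, lies at chr5:143505481-143527993 (minus strand, 6 exon blocks, 2269 bases). It ran from 254 through 339 to 356 CPM in young mice and from 392 through 424 to 451 CPM in aged mice. There was no overlap, and the young group again split into replicates 5 and 6, at 254 and 267 CPM, and the 4 others at 332 CPM or above. The means were 424 ± 19.4 CPM in aged and 317 ± 45.1 CPM in young mice (SD, n = 6 each), a log2 fold change of 0.42 (SE 0.0875, edgeR adjusted p = 0.00152) or 1.34-fold. The call held with the correction for gene length at 0.36 (adjusted p = 0.00982) and without young replicates 5 and 6 at 0.28 (adjusted p = 0.00209).

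Rac2, the form of blood cells and the main Rac of the oxidase in neutrophils, lies at chr15:78559169-78572783 (minus strand, 7 exon blocks, 3036 bases). It ran from 1503 through 2015 to 2134 CPM in young mice and from 2083 through 2277 to 2663 CPM in aged mice. Aged replicate 1, at 2083 CPM, lay below young replicates 10 and 9, and young replicates 5 and 6 were the lowest, at 1503 and 1659 CPM. The means were 2316 ± 195 CPM in aged and 1902 ± 259 CPM in young mice (SD, n = 6 each), a log2 fold change of 0.28 (SE 0.0959, edgeR adjusted p = 0.0248) or 1.22-fold. This call was lost without young replicates 5 and 6 (0.15, adjusted p = 0.118), without aged replicate 5 alone (0.24, adjusted p = 0.0542), without young replicate 6 alone (0.25, adjusted p = 0.0580) and with a correction for GC content (0.25, adjusted p = 0.0727). Among the aged mice with file numbers 17 to 19 the value was 0.22 (adjusted p = 0.162) and among those with numbers 24 to 26 it was 0.36 (adjusted p = 0.0429).

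Rac1 and Rac2 are paralogs, and how many fragments their similar coding regions could share was not tested. Fragments were counted only at a mapping quality of 60 or more.

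Hvcn1, the voltage-gated proton channel, did not pass the test. It lies at chr5:122209737-122242297 (plus strand, 15 exon blocks, 2826 bases) and its exons overlap those of Tctn1 on the opposite strand, which the strand-specific counting separates. It ran from 283 through 314 to 340 CPM in young mice and from 245 through 275 to 344 CPM in aged mice. Aged replicate 7 was the highest of all 12 libraries and aged replicate 5 the lowest. The means were 283 ± 37.4 CPM in aged and 313 ± 21.3 CPM in young mice (SD, n = 6 each), with a log2 difference of -0.14 (SE 0.0844, edgeR adjusted p = 0.176). Without aged replicate 7 the difference was -0.20 and passed as lower (adjusted p = 0.0332).

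**Figure D2:**
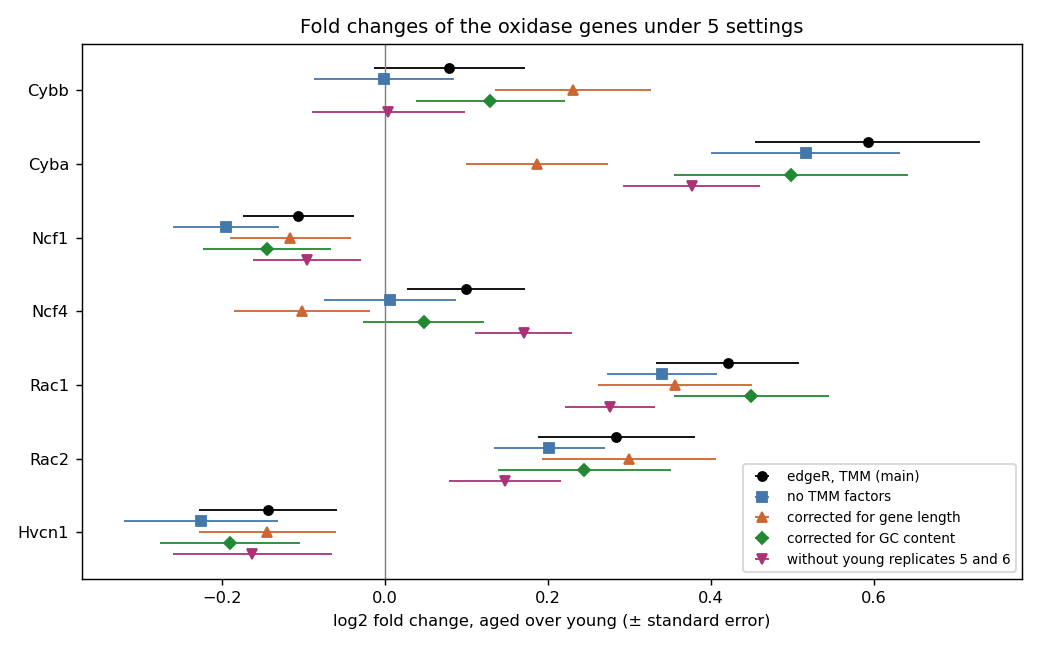
Log2 fold change of each oxidase gene, aged over young, with its standard error, under the main edgeR fit and 4 other settings. Rac1 stays between 0.28 and 0.45, whereas Cyba moves from 0.59 in the main fit to 0.19 with the correction for gene length.

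The levels of Cyba and Rac1 were compared with the share of fragments on short genes in each library. Cyba and Rac1 were each highest in aged replicate 5, which had the highest such share (13.98%), and lowest among aged mice in aged replicate 7, which had the lowest share among them (11.2%). Within the young group both were lowest in replicates 5 and 6, which had the lowest shares and also the lowest summed neutrophil markers and the highest proliferation markers of the 12 libraries. Between these ends Rac1 did not keep the order of the shares, since aged replicate 4 lay above aged replicates 1 and 2. Rac2 was also highest in aged replicate 5, but its lowest aged level was in aged replicate 1, and its call held with the correction for gene length (0.30, adjusted p = 0.0407). Cyba, at 759 bases, is itself such a gene, and Rac1 at 2269 bases is not, against a median of 2890 bases over all genes tested. Whether the share follows age, the sort or the library preparation cannot be told apart in this design.

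**Figure D3:**
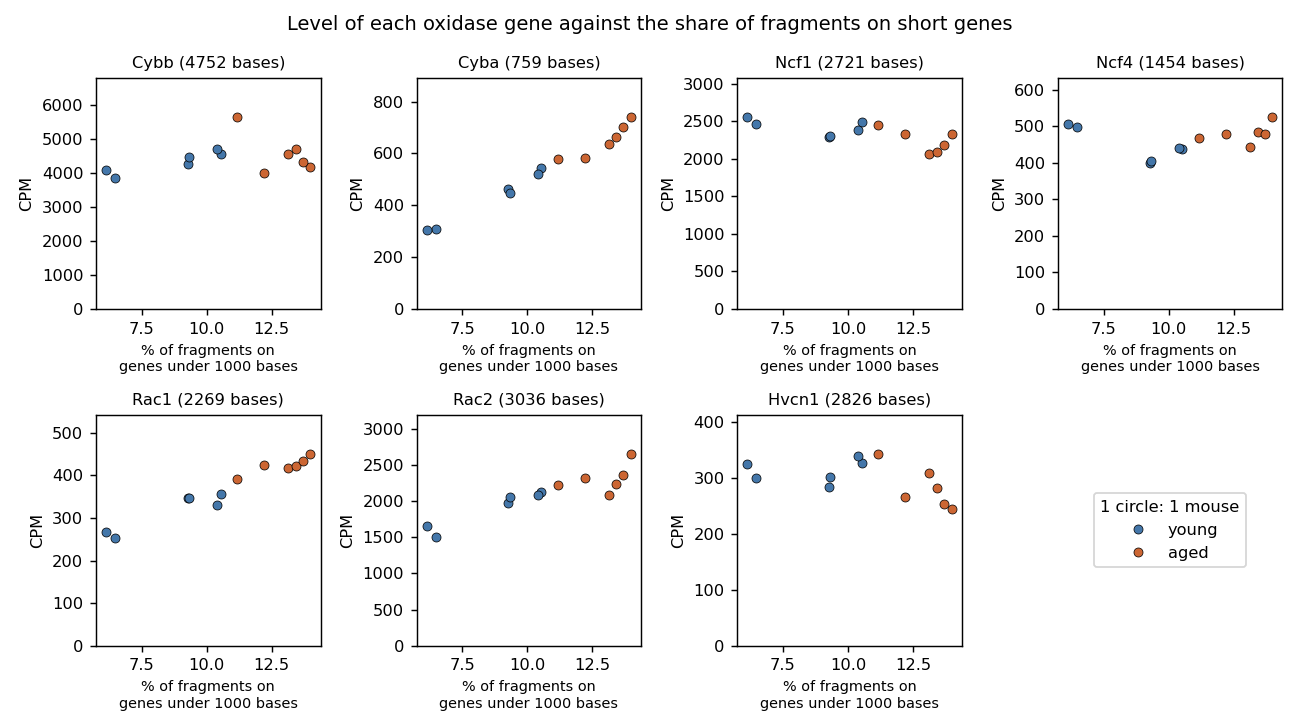
CPM of each oxidase gene against the percentage of fragments on genes under 1000 bases, 1 circle a mouse, coloured by age. Cyba, Rac1 and Rac2 are lowest in the 2 young libraries at 6.13% and 6.47%, and every aged library lies to the right of every young library.

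Compared per kilobase of exon, Cybb had the highest mean level at both ages. In aged mice Cybb stood at 962 CPM per kilobase, Cyba at 857, Ncf1 at 824 and Rac2 at 763, and the range of each overlapped with that of the next. Ncf4 at 331, Rac1 at 187 and Hvcn1 at 100.3 CPM per kilobase followed, each below its predecessor in 6 of 6 libraries with ranges that did not overlap. In young mice Cybb at 911 and Ncf1 at 887 CPM per kilobase overlapped, and Rac2 at 627 and Cyba at 569 overlapped below them. Ncf4 at 308, Rac1 at 140 and Hvcn1 at 111 CPM per kilobase again came last, with Rac1 above Hvcn1 in 6 of 6 libraries although their ranges overlapped. Cyba thus stood in the second place of the order in aged mice and in the fourth place in young mice.

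The balance between members was tested with 4 ratios of counts within each library, which do not depend on how libraries are scaled against each other. The ratio of Cybb to Cyba ran from 8.39 through a median of 9.60 to 13.5 in young mice and from 5.62 through 6.99 to 9.79 in aged mice. It was lower in aged mice by 0.55 on the log2 scale (-0.55, exact two-sided permutation p = 0.00866, 0.0108 adjusted over the 4 ratios), with overlap through aged replicate 7. Per kilobase there were 1.64 Cybb fragments for each Cyba fragment in young and 1.12 in aged mice. With the correction for gene length the difference changed sign, to 0.04 (exact permutation, adjusted p = 0.732).

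The ratio of Rac2 to Rac1 ran from 5.69 to 6.30 in young and from 4.98 to 5.90 in aged mice, a log2 difference of -0.14 (exact permutation, adjusted p = 0.0108). Rac1 therefore gained on Rac2 while both had higher means in aged mice. The ratio of Ncf1 to Ncf4 ran from 4.95 to 5.72 in young and from 4.32 to 5.22 in aged mice, a difference of -0.21 (exact permutation, adjusted p = 0.0108). With the correction for gene length neither passed, at -0.06 (adjusted p = 0.394) and -0.02 (adjusted p = 0.732) by the exact permutation test.

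The ratio of Hvcn1 to Cybb, the proton channel against the electron carrier whose charge it balances, ran from 0.0664 to 0.0797 in young and from 0.0584 to 0.0678 in aged mice. The log2 difference was -0.22 (exact permutation, adjusted p = 0.0108). This ratio was also lower with the correction for gene length (-0.38, exact permutation, adjusted p = 0.00866) and without young replicates 5 and 6 (-0.16, exact permutation, adjusted p = 0.0381). With the aged libraries of file numbers 17 to 19 alone it did not pass (-0.16, exact permutation, adjusted p = 0.0833). Neither gene on its own passed the edgeR test.

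**Figure D4:**
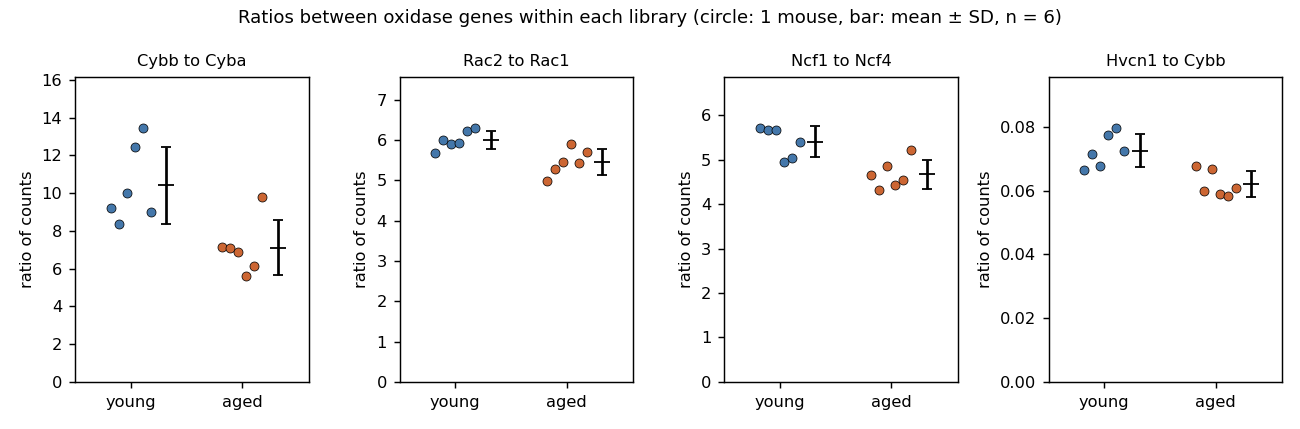
Ratio of counts between pairs of oxidase genes within each library, 1 circle a mouse, with mean and SD of 6 mice per age. All 4 ratios have a lower mean in aged mice and all 4 overlap between the ages; aged replicate 7 is the highest aged library for Cybb to Cyba, at 9.79.

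The counts in the following lists stand against 22.4% of all genes tested higher and 23% lower, and, with the correction for gene length, 1695 higher and 1560 lower of the 9742 genes. The other pieces of the enzyme differed in direction. Of 6 further subunits and chaperones, 2 were higher and 2 lower in aged mice, with a median log2 fold change of -0.01 (0.01 over all genes). The chaperone Cybc1, which the table lists as BC017643 and which stabilises the flavocytochrome, was at 106 CPM at both ages (-0.01, edgeR adjusted p = 0.909). Nrros, listed as Lrrc33 and known to limit Cybb protein, rose by 0.27 (SE 0.083, edgeR adjusted p = 0.0169), and Rap1a, a small GTPase found with the flavocytochrome, rose by 0.26 (edgeR adjusted p = 0.0111). Hsp90b1, a chaperone of the endoplasmic reticulum, was lower with -0.53 (edgeR adjusted p = 0.0151), and the ubiquitin ligase Rnf145 was lower with -0.28 (edgeR adjusted p = 0.00566). Without young replicates 5 and 6, this list had 0 higher and 1 lower. Corrected for gene length, it had 1 higher (Lrrc33) and 1 lower (Hsp90b1), Rap1a was at 0.05 (adjusted p = 0.616) and Rnf145 changed sign to 0.04 (adjusted p = 0.716). None of 9 genes of other NADPH oxidases passed the filter on counts, and 7 of them were at 0 in all 12 libraries, among them Nox1, Nox3 and Nox4.

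Genes listed here as loading or unloading Rac were next. Of 14 Rac regulators, 1 was higher and 8 were lower in aged mice, with a median of -0.20. Tiam1, an exchange factor for Rac, was lower by the widest margin with -0.78 (SE 0.10, edgeR adjusted p = 6.68e-05). Dock8 had the smallest p, with -0.57 (771.5 ± 67.7 CPM in aged and 1145 ± 38.4 CPM in young mice, SD, n = 6 each, edgeR adjusted p = 3.33e-05). Its product is known mainly as an exchange factor for Cdc42, in the same superfamily as the Rac activator Dock2. Dock2 itself was lower with -0.44 (edgeR adjusted p = 0.000383). Vav1 (-0.21) and Vav3 (-0.38), further exchange factors, were also lower. So were Bcr (-0.55), Arhgap15 (-0.36) and Arhgap25 (-0.19), which unload Rac. Arhgdib, which holds Rac inactive in the cytosol of blood cells, was the 1 higher gene, with 0.31 (edgeR adjusted p = 0.0159). Vav2 had the widest positive value, 1.145, at 2.64 CPM in aged and 1.11 CPM in young mice and did not pass (edgeR adjusted p = 0.127). With the correction for gene length 0 were higher and 3 were lower (Dock2 at -0.34, Dock8 at -0.20 and Tiam1 at -0.42).

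Of 17 kinases and lipid enzymes that activate the oxidase, 2 were higher and 7 lower in aged mice, with a median of -0.10. Prkcb, a protein kinase C isoform that phosphorylates p47phox, was lower with -0.54 (533 ± 88.2 CPM in aged and 774 ± 38.0 CPM in young mice, SD, n = 6 each; edgeR adjusted p = 0.000433). Syk, the kinase downstream of Fc receptors and integrins, had the smallest p, with -0.52 (edgeR adjusted p = 0.000287). The MAP kinase gene Mapk3 rose by 0.32 (edgeR adjusted p = 0.00745). With the correction for gene length 3 were higher and 4 lower, and the Prkcb value was -0.11 (adjusted p = 0.265).

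Of 12 factors known to drive transcription of phox genes, 1 was higher and 2 were lower, with a median of 0.03. PU.1, listed as Sfpi1, rose by 0.28 (490 ± 66.8 CPM in aged and 404 ± 45.9 CPM in young mice, SD, n = 6 each; edgeR adjusted p = 0.0301), a call absent both without young replicates 5 and 6 and with the correction for gene length, where the list had 0 higher. Cebpb was lower with -0.43 (edgeR adjusted p = 0.0124) and Nfkb1 with -0.37 (edgeR adjusted p = 0.00108). Irf8, a monocytic partner of PU.1, was at 6.60 and 4.42 CPM and had the widest positive value, 0.51 (edgeR adjusted p = 0.375).

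Of the enzymes that make the NADPH the oxidase spends, 9 were tested. Of these, 4 rose (G6pdx, Pgd, Nadk and Idh1) and 2 were lower (Nnt and Nadk2, the latter listed as Nadkd1), with a median of 0.18. G6pdx, the first step of the pentose phosphate pathway, rose by 0.53 (1377 ± 191 CPM in aged and 953 ± 111 CPM in young mice, SD, n = 6 each; edgeR adjusted p = 0.000865), and Nnt, the mitochondrial transhydrogenase, was lower with -0.56 (22.9 ± 2.51 and 33.5 ± 2.50 CPM, SD, n = 6 each; edgeR adjusted p = 0.000214). After correction for gene length 3 were higher (G6pdx, Pgd and Nadk) and 1 lower (Nnt), while Idh1 (adjusted p = 0.163) and Nadkd1 (adjusted p = 0.245) no longer passed. Nadk did not pass with the correction for GC content (0.20, adjusted p = 0.0534). Idh1 also did not pass without TMM factors (adjusted p = 0.202) or without young replicates 5 and 6 (adjusted p = 0.270).

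Of genes that dispose of the products of the oxidase, 10 were tested. Of these, 6 were higher (Prdx1, Mpo, Prdx2, Gpx4, Gpx1 and Prdx5) and 0 lower, the latter also with DESeq2, and the median was 0.58. Prdx1, a peroxiredoxin that reduces hydrogen peroxide, rose by 1.10 (21.7 ± 7.86 CPM in aged and 10.1 ± 1.23 CPM in young mice, SD, n = 6 each; edgeR adjusted p = 0.000663). Gpx1, a glutathione peroxidase and far more abundant, rose by 0.59 (604 ± 44.2 and 403 ± 99.8 CPM, SD, n = 6 each; edgeR adjusted p = 0.0029). Mpo, which turns hydrogen peroxide into hypochlorous acid and is also a promyelocyte marker, was at 5.25 and 2.57 CPM, and Prdx6, which had the only value below 0, did not pass (-0.05, edgeR adjusted p = 0.576). Corrected for gene length, 4 were higher (Prdx1, Mpo, Gpx4 and, at 0.30, Gpx1) and the median was 0.27. Without young replicates 5 and 6 Gpx1 was at 0.38 and the median was 0.36.

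**Figure D5:**
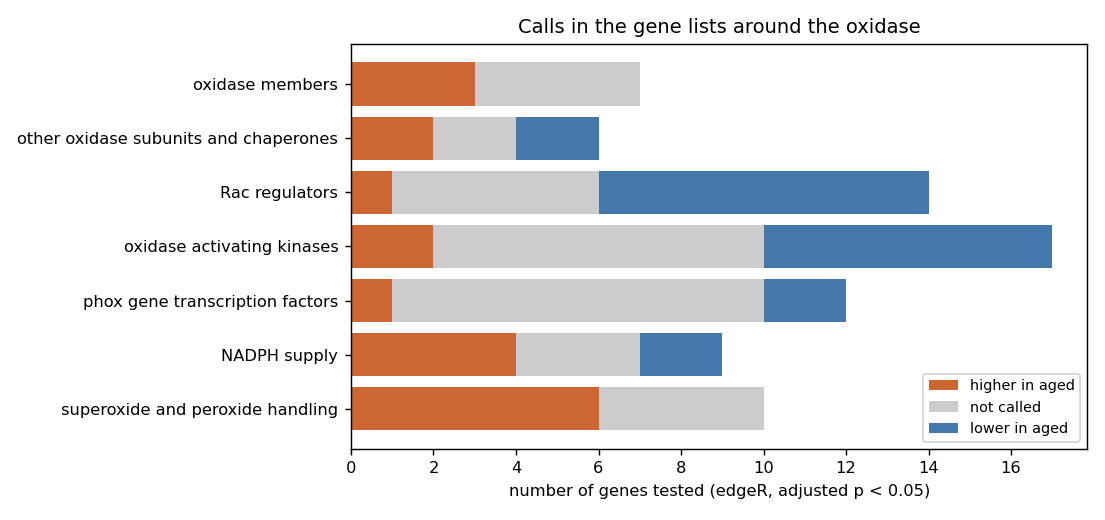
Number of tested genes in each list that were higher, not called or lower in aged mice by edgeR at an adjusted p under 0.05. The 14 Rac regulators are mostly lower (8), and the 10 genes of superoxide and peroxide handling hold 6 higher and 0 lower.

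The genes closest in pattern to each member were found by the mean absolute difference of centred log2(CPM + 1) over the 12 libraries, a description that includes the age difference itself. Cyba was closest to Tmsb4x, which encodes the actin-binding thymosin beta-4, with a mean difference of 0.0397 on the log2 scale, and to Ggh, with 0.0456. Rac1 was closest to the mitochondrial carrier gene Slc25a11 (0.0407) and to Pgd (0.0414), itself on the list of NADPH supply. Rac2 was closest to Cnn2 (0.0348) and Msn (0.0353), whose products bind actin. Cybb was closest to Nucb1 (0.0471) and Cpne3 (0.0577), Ncf1 to Lims1 (0.0321) and Vezf1 (0.0361), Ncf4 to Nrbp1 (0.0451) and Ptpn6 (0.0493), and Hvcn1 to Txnrd1 (0.0478) and Nqo2 (0.0488). No 2 members were each other's nearest profile.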

How the data were processed

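The authors deposited raw counts of paired-end, reverse-stranded fragments per gene, made with featureCounts 2.0.0 on mm10 gene models at a mapping quality of at least 60, with both ends mapped and no chimeric pairs. Base calling used bcl2fastq per the submitters' processing notes, and the aligner is not given in the sources used here. The table held the 12 libraries and no others. The counts were tested here with edgeR 4.0.16 (R 4.3.3: filterByExpr, TMM, quasi-likelihood fit with age as the only term, Benjamini-Hochberg adjustment over 9742 genes, threshold 0.05). The study tested age with DESeq2, and DESeq2 in version 1.42.0 was an alternative here. The 95% intervals of fold changes come from the standard error with 10 degrees of freedom. Ratios of counts plus 0.5 were compared with an exact two-sided permutation test over mice (924 regroupings, smallest possible p = 0.00217), adjusted over the 4 ratios.

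Depth ran from 4613239 to 16300374 fragments, and 3 counts corresponded to 0.188 to 0.642 CPM. Replicates are samples that the labels number separately as mice, so p-values measure the spread between these samples. No library repeated another, since the smallest chi-square per gene within an age was 1.67 over 30 pairs. Gene length and GC content were corrected by loess offsets, with GC from GENCODE M21 transcripts for 94.4% of genes tested. Older symbols were matched through RefSeq. The alternatives were DESeq2, no TMM factors, other filters, both corrections, thinning, the aged libraries of each run of file numbers, leaving out libraries, a replicate block and another pseudocount. Fits were tested on simulated data.

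The members and all gene lists were chosen with earlier results of these data known. Named genes are the members, the 2 nearest profiles of each member, and a selection from each other list. That selection held those furthest up, furthest down and with the lowest p, and every called gene where there were 5 or fewer. Further genes were named after their values were seen (Cybc1, Gpx1, Dock2 and the other lower Rac regulators among them). Cell type lists also held promyelocyte markers (4 of 5 tested higher in aged mice, summed level 86.9 to 111 CPM in aged and 73.4 to 100.4 CPM in young mice) and plasma cell markers (1 of 2 higher, 133 to 235 and 109 to 159.6 CPM). Some items are not reported here.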

Additional observations from a re-analysis of the deposited data

Results flagged for a closer look

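In aged replicate 7 the ratio of Cybb counts to Cyba counts was 9.79, the highest of its age, with the nearest other aged library at 7.16. The gap was 0.632 of the range of the 6 aged libraries, above the limit of Dixon's test for a group of that size. The same library had the lowest share of fragments on short genes among the aged mice (11.2%), the highest Cybb and Hvcn1 levels of all 12 libraries and the largest total (16300374 fragments), and the part of these in its ratio was not tested. This was 1 of 22 groups looked at, and chance alone gives about 1 in 20.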

How the results depend on the processing

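Over all genes 2185 were higher and 2240 lower in the main analysis. The higher count was 1392 without young replicates 5 and 6 and the lower count 1493 with the aged libraries of file numbers 24 to 26 alone. Without TMM factors the split was 1682 higher and 2762 lower. The count of members called higher was 2 or 3 under every setting, with 3 in the main analysis; without young replicates 5 and 6 the 3 were Cyba, Rac1 and Ncf4. The count called lower was 1 without TMM factors (Ncf1) and ran from 0 to 1 when 1 library was left out. Leaving out 1 library gave 0.51 to 0.67 for Cyba and 0.36 to 0.46 for Rac1, called in 12 of 12 fits each, 0.22 to 0.32 for Rac2, called in 10 of 12, and -0.20 to -0.10 for Hvcn1, called in 1 of 12. With aged replicates 1 and 2 left out, which had the highest macrophage markers, the same 3 members were called, with Cyba at 0.60, Rac1 at 0.43 and Rac2 at 0.34. That setting, the one without young replicates 5 and 6 and the corrections of the ratios were chosen after seeing the data.

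With the correction for gene length the ratio of Cybb to Cyba reversed to 0.0415, and Rac2 to Rac1 (-0.0595) and Ncf1 to Ncf4 (-0.0242) no longer passed; the correction for GC content kept all 4 (adjusted p = 0.00433 to 0.0217, exact permutation). With file numbers 17 to 19 alone Hvcn1 to Cybb was -0.16, and with 24 to 26 alone Cybb to Cyba was -0.56, Rac2 to Rac1 -0.0817 and Ncf1 to Ncf4 -0.19 (adjusted p = 0.0833 each, exact permutation). The cause was not tested; these fits hold fewer mice.

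Young and aged mice share the replicate numbers 1, 2, 5 and 6, but same-numbered mice did not deviate together across genes (correlations of -0.25 to -0.07). A weak shared effect could be missed in this way, and the labels do not say whether these mice share more than a number. With a replicate block over these 8 mice Cyba (0.86) and Rac1 (0.51) were called and Rac2 (0.37, adjusted p = 0.0951) was not, against an adjusted p of 0.0293 in the same mice without the block. Paired, the ratios differed by -0.78 for Cybb to Cyba, -0.14 for Rac2 to Rac1, -0.25 for Ncf1 to Ncf4 (adjusted p = 0.167 each) and -0.25 for Hvcn1 to Cybb (adjusted p = 0.25) by the exact sign-flip permutation test, which cannot go under 0.125 with 4 pairs. At equal depth, after thinning, 8929 genes could be tested, 1822 were higher and 1832 lower.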
